A study of Homo sapiens with 6 samples.

Results

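The genes described here encode the main chromatin silencing and remodeling machinery of human cells: the Polycomb complexes, the SWI/SNF remodelers, and the enzymes and readers of DNA methylation, with *PAXIP1*, the PAX-interacting adaptor of a histone methyltransferase complex. They were listed by name, 56 of the 17471 genes measured, though with earlier results of these data known. All 56 were present in the table, and all 56 passed the filter on low values.

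Polycomb repressive complex 2 (PRC2) places methyl groups on lysine 27 of histone H3 through its catalytic subunit EZH2 or EZH1, held together by EED and SUZ12. Polycomb repressive complex 1 (PRC1) ubiquitinates histone H2A through RING1 or RNF2, and its PCGF subunit decides which variant of the complex is built. SWI/SNF complexes slide and evict nucleosomes with the ATPase SMARCA4 or SMARCA2 and often oppose Polycomb; *ARID1A* is a frequently mutated tumor suppressor of endometrial cancer (EC). DNMT1 with UHRF1 copies DNA methylation at replication, DNMT3A and DNMT3B add it to unmethylated sites, and the TET enzymes oxidize methylcytosine as a step toward its removal.

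RNA-seq was performed on AN3CA, an established EC line that expresses *PAX2*, a developmental transcription factor lost early in endometrial carcinogenesis. The 3 control libraries came from cells with an empty vector (shEV, labelled WT), and the 3 knockdown (KD) libraries from cells with a short hairpin RNA against *PAX2* (shPAX2, labelled PAX2 KD). Both groups were selected with puromycin after transduction and grown in the same medium. The methods name a single hairpin sequence against *PAX2*, so effects of that hairpin cannot be told apart from those of lower *PAX2*. No label says that the libraries of a group came from separate cultures, so the p-values measure only the spread between these libraries, which may be technical. RNA was from bulk cultures, in which fewer cells of a state and less RNA per cell cannot be told apart.

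The 4 promoters that follow belong to the members with the 3 largest falls and to *PCGF6*, whose level rose while that of its paralog *PCGF5* fell. Each is the stretch of 250 bases just upstream of 1 of the annotated starts of the gene (RefSeq, GRCh38.p14), 5′ to 3′ on the strand of the gene, with every CpG, the dinucleotide that DNA methylation acts on, in capitals.
SMARCA2, chr9:2015097-2015346, plus strand: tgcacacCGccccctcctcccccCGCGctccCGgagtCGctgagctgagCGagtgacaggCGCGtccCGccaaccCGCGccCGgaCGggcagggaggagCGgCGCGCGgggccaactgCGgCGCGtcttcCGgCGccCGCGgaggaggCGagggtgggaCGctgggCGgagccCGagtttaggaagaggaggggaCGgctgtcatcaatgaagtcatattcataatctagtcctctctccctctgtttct
PCGF5, chr10:91162762-91163011, plus strand: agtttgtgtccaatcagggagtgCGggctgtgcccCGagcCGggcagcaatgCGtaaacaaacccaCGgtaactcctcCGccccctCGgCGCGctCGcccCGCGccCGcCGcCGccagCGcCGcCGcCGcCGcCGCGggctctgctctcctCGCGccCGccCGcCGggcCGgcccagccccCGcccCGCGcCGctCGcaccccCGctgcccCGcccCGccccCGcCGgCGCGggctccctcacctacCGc
TET1, chr10:68560087-68560336, plus strand: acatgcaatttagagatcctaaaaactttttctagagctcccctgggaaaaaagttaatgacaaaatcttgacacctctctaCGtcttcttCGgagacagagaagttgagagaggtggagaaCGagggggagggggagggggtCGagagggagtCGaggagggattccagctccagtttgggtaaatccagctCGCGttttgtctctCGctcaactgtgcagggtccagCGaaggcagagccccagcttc
PCGF6, chr10:103351141-103351390, minus strand: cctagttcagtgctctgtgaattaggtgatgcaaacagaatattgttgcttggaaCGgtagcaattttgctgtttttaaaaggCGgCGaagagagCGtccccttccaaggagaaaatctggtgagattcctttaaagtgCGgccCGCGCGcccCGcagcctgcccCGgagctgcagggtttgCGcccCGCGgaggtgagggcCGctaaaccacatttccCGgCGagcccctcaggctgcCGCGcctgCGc

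The printed *PCGF5* stretch held 41 CpG and the *SMARCA2* stretch 29, while *PCGF6* had 19 and *TET1* had 9. Stretches at other starts of the same genes differed: *PCGF5* had 41, 2 and 29, *SMARCA2* 0, 1 and 8, and *TET1* 4 and 11. The median was 11 over all 35114 such stretches in the RefSeq table and 20 over those of tested genes. Across the 83 stretches found for 49 members the median was 26. The letters GTCACGC, a core of the paired-box motif that PAX proteins bind, occurred on either strand in 2.41% of the members' stretches, those of *PBRM1* and *SUZ12*, in 3.22% of those of tested genes and in 2.2% of all stretches. The E-box CACGTG occurred in 13.3% of the members' stretches, 8.28% of those of tested genes and 6.35% of all. The E2F motifs TTTGGCGC or TTTCCCGC occurred in 4.82%, 2.96% and 1.93%. None of the 4 printed stretches held any of these letters. Each motif was counted regardless of the others, and some stretches of the same gene overlap.

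The targeted gene was examined first. *PAX2* (chromosome 10, 102495153 to 102589701 in GRCh37, plus strand) had 4.03, 3.66 and 2.74 TPM (a read count per gene length, as a share of the library) in the shEV libraries and 0.916, 0.723 and 1.17 TPM in the shPAX2 libraries. The groups did not overlap, and the mean with the hairpin was 26.9% of the shEV mean (log2 fold change -1.47, SE 0.18, limma adjusted p = 0.000294). From the TPM values the reads could be recovered, with totals between 10730909 and 18221859 in the shEV libraries and between 19422615 and 29405787 in the shPAX2 libraries. Every shPAX2 library was thus deeper, and depth cannot be told apart from KD. Of 8 epithelial markers present, only *KRT18* passed the filter, although the labels call the cells epithelial, and the sum of the markers was 11.2 to 13.3 TPM in shEV and 12.4 to 18.1 TPM in shPAX2. *CDH1* and *EPCAM*, which define epithelial cells, had at most 4 and 6 reads in any library. Endothelial and leukocyte markers summed to 0.887 to 1.52 TPM and 1.61 to 2.34 TPM. Fibroblast markers summed to 849 to 888 TPM in shEV and 597 to 689 TPM in shPAX2, and the 2 called among them went opposite ways: *COL1A2* fell from 836 to 390 TPM and *COL3A1* rose from 35.1 to 242 TPM. The part of these markers in the results was not tested.

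Among the 56 members, *PAX2* KD was accompanied by modest changes. On the TPM scale most of them were downward, as were those of all genes tested. By limma at an adjusted p under 0.05, 4 members were higher and 19 lower in shPAX2. Among all 13163 genes tested, 12.2% were higher and 30.5% lower, beside 7.14% and 33.9% of the members. In either direction, 23 members (41.1%) and 42.8% of all genes were called. The largest falls were in *SMARCA2*, *PCGF5*, *TET1* and *TET3*, and no member reached a 2-fold change. Of all genes, 4.54% were called with a change of at least 2-fold. A log2 fold change of at least 0.5 in either direction was called in these 4 members and in 16.3% of all genes. The median log2 fold change was -0.09 in the members and -0.10 in all genes. The groups did not overlap for 34 members (60.7%), including all 23 called, against 54.9% of all genes.

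The split between higher and lower depended on how the libraries were scaled, because TPM is a share of a total. With median-of-ratios scaling, which sets the typical gene to no change, the split was 10 higher and 10 lower (all genes: 21.8% and 19.6%). With quantile normalization it was 11 and 14 (18% and 18.9%). In either direction these scalings called 20 and 25 members (35.7% and 44.6%), beside 41.4% and 36.9% of all genes. In all 3 scalings, 14 members were called in the same direction, 4 higher and 10 lower. That is 25% of the members, against 27.9% of all genes tested (12% higher and 15.9% lower). The 4 were *PHF1*, *BMI1*, *PCGF6* and *CBX6*, all of Polycomb, and the 10 were *PCGF2*, *PCGF5*, *CBX8*, *PHC1*, *RYBP*, *SMARCA2*, *SMARCC2*, *DNMT3A*, *TET1* and *TET3*. No alternative fit took any of these 14 past an adjusted p of 0.05, whereas the other 9 calls were each lost in at least 1 alternative. Without shPAX2 replicate 1, 7 members were higher. Median-of-ratios scaling moved the median of all genes from -0.10 to 0.01 on the log2 scale, and fold changes from here on are on the TPM scale unless said otherwise.

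**Figure D1:**
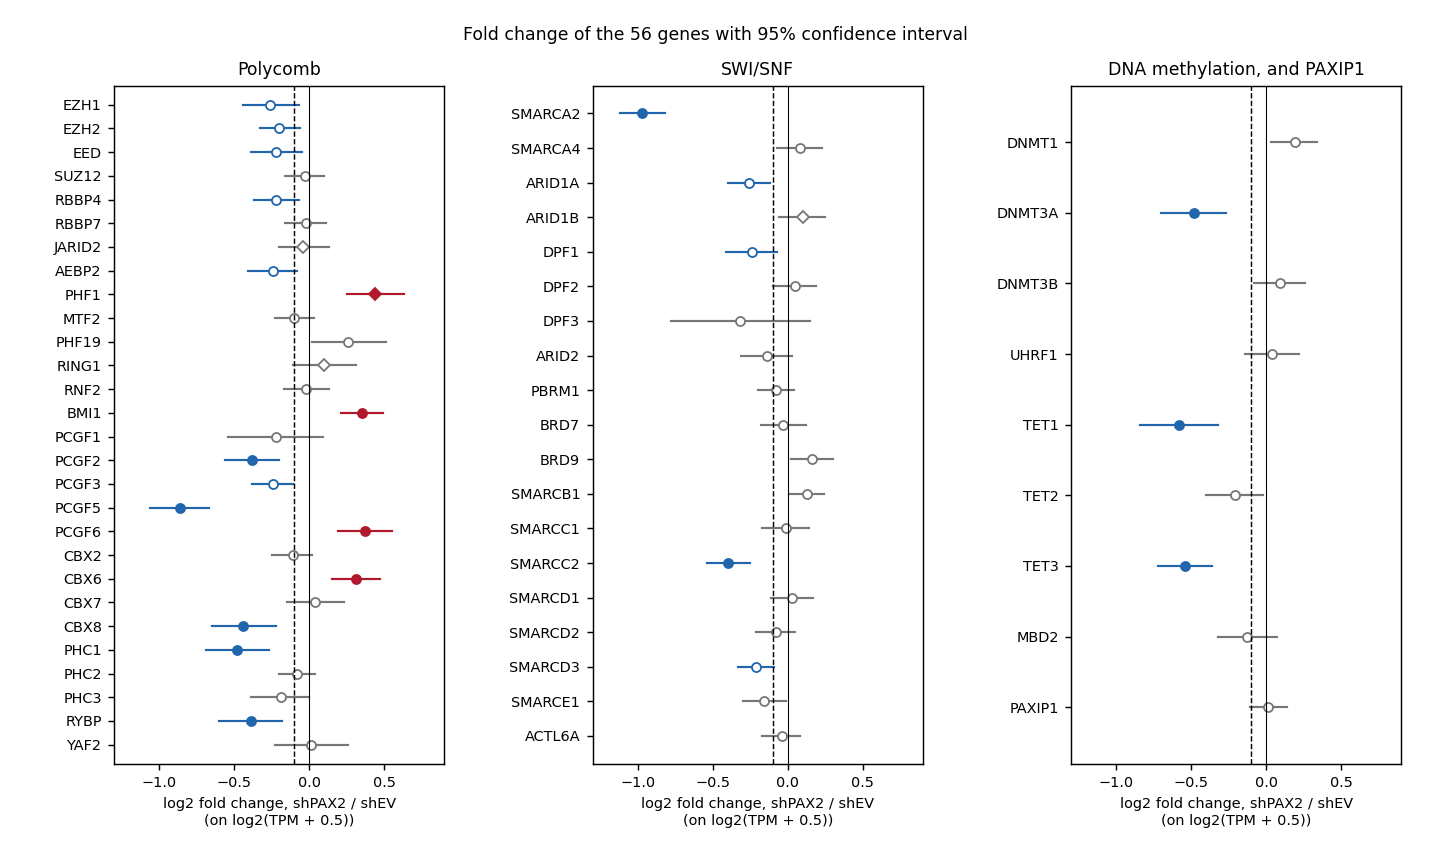
Log2 fold change (shPAX2 over shEV, on log2(TPM + 0.5)) of the 56 genes with its 95% confidence interval, by complex. Red is higher and blue lower at a limma adjusted p under 0.05, gray is not called, filled symbols were called in the same direction under 3 scalings, diamonds are genes on chromosome 6, and the dashed line marks the median of all genes at -0.10; *SMARCA2* lies farthest left at -0.97 and *PHF1* farthest right at 0.44.

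In PRC2, 4 of the 6 core genes (66.7%) were slightly lower after KD, beside 30.5% of all genes tested. None of these 4 calls held with median-of-ratios scaling. *EZH2*, the main methyltransferase of dividing cells (chromosome 7, 148504349 to 148581413), had 87.5, 78.4 and 84.8 TPM in shEV and 70.6, 73.7 and 74.3 TPM in shPAX2. Its groups did not overlap (83.6 ± 4.68 against 72.9 ± 2 TPM, SD, n = 3, log2 fold change -0.20, SE 0.06, limma adjusted p = 0.0296). *EZH1*, the alternative methyltransferase of resting cells, had 11.6, 12 and 13.5 TPM in shEV and 10, 10 and 10.7 TPM in shPAX2, again without overlap (log2 fold change -0.26, SE 0.08, limma adjusted p = 0.0301). *EED*, which reads the methyl mark, had 21.3, 19.3 and 19.4 TPM against 15.7, 17.8 and 17.8 TPM (log2 fold change -0.22, SE 0.08, limma adjusted p = 0.042). The histone chaperone subunit *RBBP4* had a log2 fold change of -0.22 (limma adjusted p = 0.0251). With median-of-ratios scaling the limma adjusted p of these 4 ran from 0.156 (*EZH1*) to 0.254 (*EZH2*). Leaving out a single library also ended calls, that of *EED* with any of the 6 libraries and that of *EZH2* with any but shEV replicate 2. The call of *EZH1* was lost without shEV replicate 2 or 3 or shPAX2 replicate 1 or 2 (limma adjusted p = 0.0559 to 0.0994), and that of *RBBP4* without shEV replicate 2 or 3 or shPAX2 replicate 2 or 3 (0.0702 to 0.0877). Over all alternatives the limma adjusted p ran from 0.0376 to 0.345 for *EED*, from 0.0181 to 0.254 for *EZH2*, from 0.0153 to 0.51 for *EZH1* and from 0.00596 to 0.218 for *RBBP4*.

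*SUZ12*, the scaffold of PRC2 (chromosome 17, 30264026 to 30328057), had 55.0, 51.2 and 51.5 TPM in shEV and 52.4, 51.0 and 51.1 TPM in shPAX2. The groups overlapped, and the 95% interval of the log2 fold change ran from -0.16 to 0.10. *RBBP7*, the paralog of *RBBP4* and the member with the most TPM (253 in shEV), had a log2 fold change of -0.02 and was not called. Among the accessory subunits, which steer PRC2 to its sites, 1 of 5 was higher and 1 lower (20% each, beside 12.2% and 30.5% of all genes). *PHF1*, a Polycomb-like DNA-binding subunit on chromosome 6, rose from 10.8 ± 1.09 to 14.8 ± 0.153 TPM (SD, n = 3, log2 fold change 0.44, SE 0.08, limma adjusted p = 0.00294). *CUTA*, on the opposite strand across *PHF1*, had 71.5 TPM in shEV and 93.9 TPM in shPAX2. The paralogs of *PHF1* were not called on the TPM scale: *PHF19* had 0.26 (limma adjusted p = 0.0809) and *MTF2* -0.10 (limma adjusted p = 0.186). *PHF19* was called higher with median-of-ratios scaling (0.38, limma adjusted p = 0.0237), quantile normalization (0.34, 0.0299) and voom (0.29, 0.0224), and without shPAX2 replicate 1 (0.38, 0.00732). *AEBP2*, of the alternative PRC2 class, fell by 0.24 in log2 units (limma adjusted p = 0.024), but had a limma adjusted p of 0.157 with median-of-ratios scaling and of up to 0.803 over all alternatives. *JARID2* had -0.04 and an interval from -0.20 to 0.13.

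In PRC1, neither of the 2 ligases was called on the TPM scale, and among the other subunits 3 were higher and 6 lower. These are 17.6% and 35.3% of the 17 PRC1 members, beside 12.2% and 30.5% of all genes tested. *RNF2*, the main H2A ligase (chromosome 1, 185014658 to 185071735), had 23.8, 26.4 and 25.5 TPM in shEV and 24.2, 24.7 and 25.8 TPM in shPAX2, with an interval of the log2 fold change from -0.17 to 0.13. *RING1*, its paralog on chromosome 6 (33176277 to 33180499), had 5.34, 4.77 and 4.83 TPM in shEV and 5.24, 5.46 and 5.40 TPM in shPAX2, with an interval from -0.11 to 0.31. Both overlapped between groups. With quantile normalization *RING1* was called higher (0.33, limma adjusted p = 0.022). The length that the deposited TPM of *RING1* implies was 8.27 times the annotated one, and the same ratio had a median of 6.48 over 91 genes in the same stretch of chromosome 6 against 0.963 over all genes tested. The level of *RING1* is therefore not compared with that of other genes, whereas its difference between groups does not depend on that length.

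Of the 6 PCGF genes, which define the PRC1 variants, 2 rose and 3 fell, and *PCGF1* was not called (-0.22, limma adjusted p = 0.222). These 33.3% and 50% stood beside 12.2% and 30.5% of all genes tested. *PCGF5*, whose variant complex deposits H2A ubiquitin widely (chromosome 10, 92922769 to 93044094), had 11, 11.2 and 12 TPM in shEV and 5.9, 5.63 and 6.6 TPM in shPAX2. Every shPAX2 library lay below every shEV library (11.4 ± 0.545 against 6.04 ± 0.5 TPM, SD, n = 3), a fall to 53% (log2 fold change -0.86, SE 0.09, limma adjusted p = 0.000111). *BMI1* or PCGF4, of canonical PRC1 and a promoter of stem cell renewal (chromosome 10, 22610028 to 22620413), had 39.6, 37.9 and 40.1 TPM in shEV and 53.7, 48.3 and 48.4 TPM in shPAX2. All 3 shPAX2 libraries were higher (log2 fold change 0.35, SE 0.06, limma adjusted p = 0.00242). *BMI1* shares its strand and its exons with the readthrough gene *COMMD3-BMI1*, which had 44 TPM in shEV and 52.8 TPM in shPAX2 (limma adjusted p = 0.0118), so how reads were divided between them is uncertain.

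*PCGF2*, which replaces BMI1 in canonical PRC1, fell from 24.8 ± 1.84 to 18.9 ± 1.35 TPM (SD, n = 3, log2 fold change -0.38, SE 0.08, limma adjusted p = 0.00483). *PCGF6*, of the E2F6 and MGA variant that silences germline genes, rose from 39.9 ± 3.31 to 51.8 ± 3.65 TPM (SD, n = 3, log2 fold change 0.37, SE 0.08, limma adjusted p = 0.00521). *PCGF3*, the closest paralog of *PCGF5*, fell by 0.24 in log2 units (limma adjusted p = 0.0106), though with median-of-ratios scaling its limma adjusted p was 0.0872.

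The CBX subunits read the methyl mark of PRC2. Of the 4 CBX members, 1 was higher and 1 lower (25% each), beside 12.2% and 30.5% of all genes tested. *CBX8* fell from 26.5 ± 2.26 to 19.4 ± 2.20 TPM (SD, n = 3, log2 fold change -0.44, SE 0.10, limma adjusted p = 0.00621). *CBX6* rose from 34.5 ± 1.85 to 43 ± 3 TPM (SD, n = 3, log2 fold change 0.31, SE 0.07, limma adjusted p = 0.00735). *CBX2* (-0.11) and *CBX7* (0.04) were not called. Of the Polyhomeotic subunits, which polymerize to compact chromatin, *PHC1* fell from 7.25 ± 0.613 to 5.05 ± 0.156 TPM (SD, n = 3, log2 fold change -0.48, limma adjusted p = 0.00366). *PHC2* and *PHC3* had -0.08 and -0.19 and were not called. *RYBP*, which takes the place of CBX in variant PRC1, fell from 25.1 ± 3.38 to 19.0 ± 0.720 TPM (SD, n = 3, log2 fold change -0.39, limma adjusted p = 0.00905). Its paralog *YAF2* had 0.01 and was not called.

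**Figure D2:**
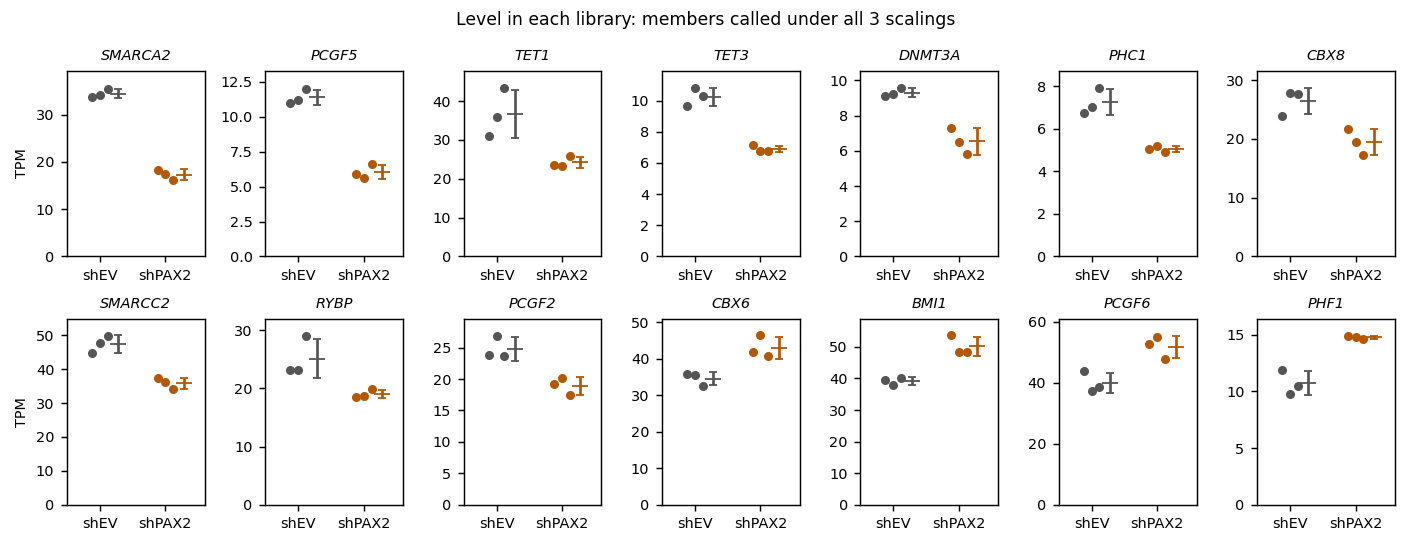
TPM in each library of the 14 members called in the same direction under 3 scalings, with shEV in gray and shPAX2 in orange; each point is a library, and the bar gives the mean and SD (n = 3). The groups do not overlap in any panel, and the fall of *SMARCA2* from 34.3 to 17.3 TPM is the deepest.

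In SWI/SNF, *SMARCA2* fell by nearly 2-fold, and 4 other members were lower by smaller amounts. *SMARCA2* or BRM (chromosome 9, 1980290 to 2193624), 1 of the 2 ATPases, had 33.6, 34.1 and 35.4 TPM in shEV and 18.3, 17.5 and 16.1 TPM in shPAX2. The shPAX2 libraries all lay far below the shEV libraries (34.3 ± 0.927 against 17.3 ± 1.07 TPM, SD, n = 3), a mean of 50.3% of shEV. The log2 fold change was -0.97 (SE 0.07, limma adjusted p = 1.31e-05) and lay between -1.01 and -0.86 in all alternative fits. *SMARCA4* or BRG1, the other ATPase (chromosome 19, 11071608 to 11190102), had 108, 114 and 103 TPM in shEV and 110, 122 and 111 TPM in shPAX2. These groups overlapped, and the 95% interval of the log2 fold change ran from -0.07 to 0.23 (limma adjusted p = 0.357, and 0.0431 with median-of-ratios scaling).

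Of the 19 SWI/SNF members, 5 (26.3%) were lower and 0 higher by limma, beside 30.5% and 12.2% of all genes tested. At an unadjusted limma p under 0.05, 2 were higher and 6 lower, beside 2013 and 4749 of all 13163 genes. Other settings changed this split: median-of-ratios scaling gave 4 higher and 2 lower, quantile normalization 2 and 5, and voom on the recovered reads 2 and 6. *ARID1A*, the DNA-binding subunit of BAF (chromosome 1, 27019727 to 27108595), had 40.9, 44.6 and 40.5 TPM in shEV and 34.1, 35.0 and 35.8 TPM in shPAX2. The groups did not overlap (log2 fold change -0.26, SE 0.06, limma adjusted p = 0.00864), but with median-of-ratios scaling the limma adjusted p was 0.0901. *ARID1B*, its mutually exclusive paralog on chromosome 6 (157097154 to 157531913), had 17, 17.6 and 18.8 TPM in shEV and 19, 18.2 and 19.9 TPM in shPAX2. The groups of *ARID1B* overlapped, with a log2 fold change of 0.10, an interval from -0.06 to 0.25 and a limma adjusted p of 0.278, or 0.0365 with median-of-ratios scaling.

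*SMARCC2*, 1 of the 2 paralogous core scaffolds, fell from 47.4 ± 2.57 to 35.9 ± 1.64 TPM (SD, n = 3, log2 fold change -0.40, SE 0.06, limma adjusted p = 0.00142). It lies across from *MYL6* on the opposite strand, a gene at 1210 TPM in shEV and 1820 TPM in shPAX2; the kit marked strand, but the strand setting of the counting is not given in the sources used here. *SMARCC1*, the other scaffold, had 123 and 121 TPM and was not called. The remaining calls were *DPF1*, a subunit typical of neurons (-0.24, limma adjusted p = 0.0293), and *SMARCD3*, a subunit that links remodelers to tissue-specific factors (-0.21, limma adjusted p = 0.0139). Neither was called with median-of-ratios scaling (limma adjusted p = 0.178 and 0.169). The call of *DPF1* was also lost without either of shEV replicates 1 and 2 or shPAX2 replicates 1 and 3, and that of *SMARCD3* without shEV replicate 2 (up to 0.25 and 0.169 over all alternatives). The PBAF subunits *ARID2*, *PBRM1* and *BRD7* had -0.14, -0.08 and -0.03, and *BRD9* of the noncanonical complex had 0.16 (limma adjusted p = 0.0698). *SMARCB1*, the tumor suppressor of rhabdoid tumors, had 0.13 (limma adjusted p = 0.0674), and the other 6, *SMARCE1*, *SMARCD1*, *SMARCD2*, *ACTL6A*, *DPF2* and *DPF3*, had between -0.32 and 0.05 without a call.

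In the DNA methylation group, 3 of 8 members (37.5%) were lower and 0 higher by limma, beside 30.5% and 12.2% of all genes tested. At an unadjusted limma p under 0.05, 1 was higher and 4 lower, beside 2013 and 4749 of all 13163 genes. Voom on the recovered reads gave 1 higher and 4 lower, and median-of-ratios scaling 1 and 3. *DNMT3A*, a de novo methyltransferase (chromosome 2, 25450724 to 25565459), had 9.11, 9.23 and 9.58 TPM in shEV and 7.29, 6.52 and 5.79 TPM in shPAX2. All 3 shPAX2 libraries were lower (9.31 ± 0.244 against 6.53 ± 0.750 TPM, SD, n = 3, log2 fold change -0.48, SE 0.10, limma adjusted p = 0.00392). *DNMT3B*, the other de novo enzyme, had 12.3, 11 and 11.6 TPM in shEV and 11.9, 12.5 and 12.7 TPM in shPAX2, which overlapped (interval of the log2 fold change from -0.08 to 0.26).

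*DNMT1*, the maintenance enzyme (chromosome 19, 10244018 to 10341962), had 108, 99.8 and 93.3 TPM in shEV and 110, 120 and 113 TPM in shPAX2. All shPAX2 libraries were above the shEV libraries, but the limma adjusted p was 0.0517 (log2 fold change 0.19, SE 0.07), and it was 0.00759 with median-of-ratios scaling and 0.00759 to 0.181 over all alternatives. *S1PR2*, which overlaps *DNMT1* on the same strand, had 7.34 and 6.43 TPM. *UHRF1*, which brings DNMT1 to hemimethylated DNA, had 42.9, 43.8 and 37.7 TPM in shEV and 43.2, 45.7 and 39.2 TPM in shPAX2, with an interval from -0.14 to 0.22. Beside *DNMT1*, 8 of 16 DNA replication genes (50%) were higher and 1 (6.25%), *CCNE1*, lower. Among all genes tested, 12.2% were higher and 30.5% lower. The median log2 fold change of the 16 was 0.19, and their sum was 2020 to 2270 TPM in shEV and 2450 to 2560 TPM in shPAX2. The largest rise was in *MCM3* (0.72, from 147 to 242 TPM), on chromosome 6, where 62% of genes tested were higher. Whether the replication genes bear on *DNMT1* was not tested.

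The TET enzymes all had lower means after KD. *TET1* (chromosome 10, 70320094 to 70454244) had 31.1, 35.8 and 43.3 TPM in shEV and 23.6, 23.3 and 25.8 TPM in shPAX2. The shEV libraries were spread widely, yet the lowest of them exceeded every shPAX2 library (36.8 ± 6.17 against 24.2 ± 1.36 TPM, SD, n = 3, log2 fold change -0.58, SE 0.11, limma adjusted p = 0.00404). *TET3* (chromosome 2, 74212037 to 74335303) had 9.63, 10.8 and 10.3 TPM in shEV and 7.15, 6.77 and 6.78 TPM in shPAX2, with no overlap (log2 fold change -0.54, SE 0.08, limma adjusted p = 0.000918). *TET2* (chromosome 4, 106067032 to 106200973) had 24.6, 25.9 and 30.4 TPM in shEV and 23.2, 22.4 and 24.0 TPM in shPAX2. These groups did not overlap either, but the limma adjusted p was 0.0737 (log2 fold change -0.21, SE 0.08) and 0.0325 to 0.369 over all alternatives. *MBD2*, a reader of methylated DNA, had -0.13 (limma adjusted p = 0.263). *PAXIP1* (PTIP) had 41.9 TPM in shEV and 42.3 TPM in shPAX2, a log2 fold change of 0.01 (limma adjusted p = 0.856).

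Ratios of paralogs within a library are not changed by a scaling that multiplies the whole library by 1 factor, as median-of-ratios scaling does. Quantile normalization moves each gene by its rank and can change them. The ratio was computed for 10 pairs that fill the same position in a complex or serve the same reaction. Not every paralog was paired: *CBX2*, *CBX7*, *TET1*, *PCGF3*, *PCGF5* and *PCGF6*, among others, were in no pair. Its size depends on the gene lengths used for TPM, whereas its difference between groups does not. *SMARCA4* over *SMARCA2* had log2 ratios of 1.69, 1.74 and 1.54 in shEV and 2.59, 2.81 and 2.78 in shPAX2, so that the mean ratio moved from 3.15 to 6.63. *BMI1* over *PCGF2* had 0.73, 0.49 and 0.76 in shEV and 1.48, 1.26 and 1.47 in shPAX2, from a ratio of 1.58 to 2.65. *DNMT3A* over *DNMT3B* had -0.43, -0.25 and -0.27 in shEV and -0.71, -0.94 and -1.14 in shPAX2, from 0.801 to 0.525.

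In 8 of the 10 pairs the groups did not overlap, and each of these had an exact two-sided permutation p of 0.1, the smallest that 3 against 3 libraries can give (0.125 after Benjamini-Hochberg adjustment over the 10 pairs). This design therefore could not pass 0.05. Of single genes tested, 54.9% did not overlap, and no such share was computed for ratios of other genes. *CBX8* and *CBX6*, which form a pair, were the only CBX members called. The mean log2 ratio also differed between groups for *CBX8* over *CBX6* (-0.39 to -1.15), *RYBP* over *YAF2* (2.77 to 2.35), *SMARCC1* over *SMARCC2* (1.37 to 1.76), *ARID1A* over *ARID1B* (1.24 to 0.88) and *TET3* over *TET2* (-1.39 to -1.75), each without overlap. The ratios of *EZH2* over *EZH1* (2.76 and 2.83, exact permutation p = 0.5) overlapped between groups. So did those of *RNF2* over *RING1*, with a difference of -0.13 in log2 units (exact permutation p = 0.4). The size of that ratio is not read, because of the length that the TPM of *RING1* implies.

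**Figure D3:**
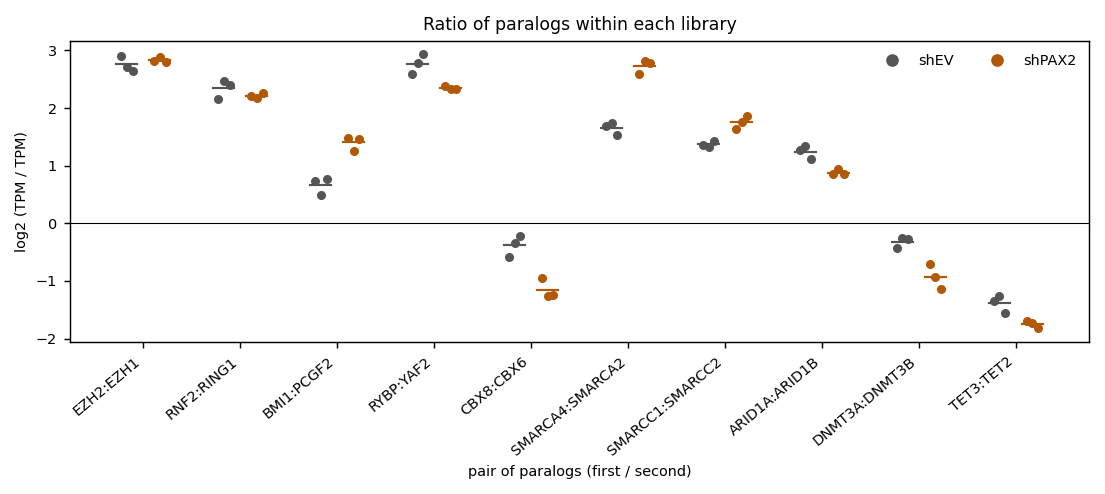
Log2 ratio of TPM between 10 pairs of paralogs in each library, shEV in gray and shPAX2 in orange, with a line at each mean (n = 3). The height of *RNF2* over *RING1* is not read as a difference in level, because of the length that the TPM of *RING1* implies. In 8 pairs the groups do not overlap, and the widest gap is that of *SMARCA4* over *SMARCA2*, from a mean of 1.66 in shEV to 2.73 in shPAX2.

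Of the 56 members, 4 lie on chromosome 6, where genes as a whole stood higher in shPAX2: 62% of 635 genes tested there were higher and 7.24% lower, against 9.82% and 32.1% of genes on other chromosomes. The median log2 fold change was 0.39 on chromosome 6 and -0.11 elsewhere. Only *PHF1* (0.44) among the 4 was called, close to the median of its chromosome, while *RING1* (0.10), *ARID1B* (0.10) and *JARID2* (-0.04) lay below that median by 0.29 to 0.43. Without the genes of chromosome 6, 3 of 52 members were higher and 19 lower (5.77% and 36.5%, beside 9.58% and 31.3% of all genes). The part of the chromosome in the result for *PHF1* was not tested.

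The partners of these complexes, a list of 54 genes, gave 51 tested, with 7 higher and 17 lower by limma (13 and 10 with median-of-ratios scaling). These 13.7% and 33.3% stood beside 12.2% and 30.5% of all genes tested. Without shEV replicate 2 the split was 4 and 10, without shPAX2 replicate 2 it was 2 and 9, and without shPAX2 replicate 3 it was 7 and 10. In all 3 scalings, 15 of the 51 (29.4%) were called in the same direction, beside 27.9% of all genes. There were 5 partners with a log2 fold change of at least 0.5 in either direction and a call, and most of the rest are given by count. *ACTL6B*, which encodes the neuronal actin-like subunit BAF53b that replaces ACTL6A in neurons, had 0, 0 and 1 reads in shEV and 36, 65 and 50 reads in shPAX2. These correspond to 0, 0 and 0.0723 TPM and to 1.54, 3.15 and 3.35 TPM. With every shEV library set to a floor of 3 reads, it was at least 10.1-fold higher, which covers counting error only. *ACTL6B* passed the filter only through the shPAX2 libraries, where it was high. Its limma call, counted among the 7 partners higher and the 15 called in all 3 scalings, is therefore not taken as support. *ACTL6A* itself had 95.8 and 92.9 TPM and was not called, *DPF1* was lower, and the neuronal SS18 paralog *SS18L1* had -0.03.

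*KDM6B*, a demethylase that removes the PRC2 mark, fell from 5.63 ± 0.516 to 3.14 ± 0.164 TPM (SD, n = 3, log2 fold change -0.75, SE 0.11, limma adjusted p = 0.000738). *ZBTB38*, a reader of methylated DNA, fell from 34.8 ± 1.93 to 21.2 ± 1.51 TPM (SD, n = 3, log2 fold change -0.70, SE 0.07, limma adjusted p = 0.000125). *MBD4*, a glycosylase that repairs deaminated methylcytosine, fell from 41.2 ± 4 to 28.2 ± 1.34 TPM (SD, n = 3, log2 fold change -0.53, SE 0.08, limma adjusted p = 0.000904). *GLTSCR1*, a defining subunit of noncanonical BAF, had 1.18 ± 0.251 and 0.556 ± 0.222 TPM (SD, n = 3, log2 fold change -0.68, SE 0.20, limma adjusted p = 0.0255), and its limma adjusted p was 0.11 with quantile normalization and 0.00922 to 0.11 over all alternatives; its call was lost without any of shEV replicates 1 and 2 and shPAX2 replicates 2 and 3. Just under the limit, *KDM2B*, which recruits variant PRC1 to CpG islands, fell from 8.58 ± 1.05 to 5.90 ± 0.336 TPM (SD, n = 3, limma adjusted p = 0.00486).

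By list, 2 of 19 Polycomb partners were higher and 6 lower (10.5% and 31.6%), and 3 and 3 of 9 SWI/SNF partners (33.3% each). Of the 3 higher SWI/SNF partners, *ACTL6B* passed the filter only through the shPAX2 libraries. The others, *PHF10* (0.24) and *GLTSCR1L* (0.41), lie on chromosome 6, where 62% of genes tested were higher. Of the 10 demethylase and COMPASS genes, 3 (30%) were lower and the rest were not called. Of 13 DNA methylation partners, 2 were higher and 5 lower (15.4% and 38.5%). Among all genes tested, 12.2% were higher and 30.5% lower. Germline genes, a class that DNA methylation and the PCGF6 complex keep silent in somatic cells, were examined by level. Of 15 listed, 9 were present and 6 of these had at most 3 reads in every library. Only *PRAME*, an antigen often active in tumors, was tested, with 160, 164 and 165 TPM in shEV and 159, 163 and 159 TPM in shPAX2, and it was not called (limma adjusted p = 0.736). *PRAME* was thus already active in shEV, and the other 8 present were below the filter. A gene activated in the shPAX2 libraries alone could have passed the filter, as *ACTL6B* did. These 8 did not pass it, so no activation to that level was seen among them. Changes below the filter were not tested, and listed genes that were not present could not be examined.

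**Figure D4:**
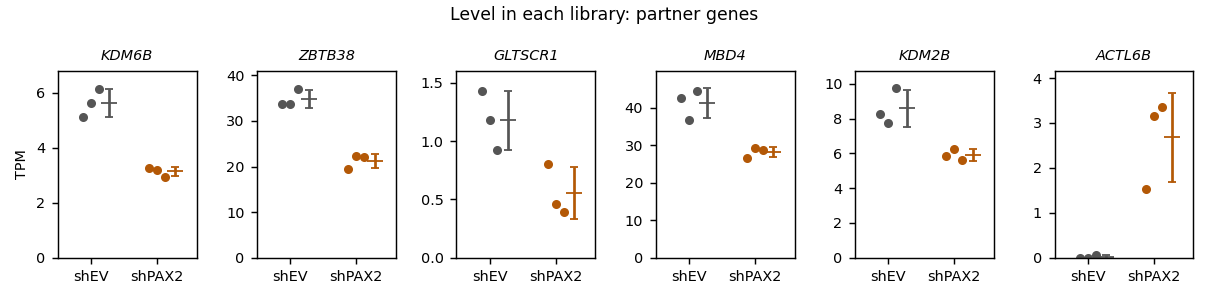
TPM in each library of *KDM2B* and the 5 partner genes with a call and a log2 fold change of at least 0.5 in either direction, shEV in gray and shPAX2 in orange; points are libraries, and bars the mean and SD (n = 3). *ACTL6B* was near 0 in shEV and 1.54 to 3.35 TPM in shPAX2, and the other 5 were lower in every shPAX2 library.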

How the data were processed

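The authors deposited TPM values (reads scaled by gene length and library total) for 17471 genes in 6 libraries, made per the labels from stranded total RNA with STAR, Subread, featureCounts and edgeR among the named tools, on hg19 (GRCh37). The study's methods give STAR with RSEM for another cell line, so which counter made these values is not given in the sources used here. The values gave the same total in each library, and the ratios between libraries of a gene were ratios of whole numbers for 100.0% of genes (relative tolerance 1e-09), from which whole reads were recovered up to a factor common to the libraries of a gene. Chi-square per degree of freedom of these reads was 3.12 to 14.9 within groups and 32.1 to 58.3 between groups, above sampling noise for every pair.

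The test covered genes that reached a TPM of 0.5 in 3 or more libraries and used limma 3.58.1 in R 4.3.3 (lmFit, then robust eBayes with a trend), comparing log2(TPM + 0.5) between the groups, two-sided, with no covariate and with Benjamini-Hochberg adjustment over all 13163 genes. A call is an adjusted p under 0.05. All fold changes refer to log2(TPM + 0.5), which understates those of low genes. Ratios of paralogs were compared by an exact permutation test. Same-numbered libraries did not deviate together (correlations -0.0523, 0.0815 and 0.0014), so the numbers do not pair the samples.

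Per-library values are given for members with a call and a log2 fold change of 0.5 or more in size and, whatever their result, for *EZH2*, *EZH1*, *EED*, *SUZ12*, *BMI1*, *RING1*, *RNF2*, *ARID1A*, *ARID1B*, *SMARCA4*, *SMARCA2*, *DNMT1*, *DNMT3A*, *DNMT3B*, *UHRF1* and *TET1* to *TET3*; partners are named by the same fold and call. *KDM2B*, *SS18L1*, *PHF10*, *GLTSCR1L*, *CCNE1*, *MCM3* and *PRAME* were named after their values were seen. The members and lists were chosen with earlier results of these data known. Symbols were placed on GENCODE annotation of GRCh37 for 94.8% of genes. Alternatives were other pseudocounts (0.1, 1), filters (none, a TPM of 5), scalings, plain eBayes, voom on the recovered reads, a replicate block, no chromosome 6 genes, an adjusted p under 0.01, and leaving out each library.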

Additional observations from a re-analysis of the deposited data

How the results depend on the processing

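Of 367 alternative fits of the 23 called members, 315 kept the call and its direction, 52 lost the call, in 9 genes (*EZH1*, *EZH2*, *EED*, *RBBP4*, *AEBP2*, *PCGF3*, *ARID1A*, *DPF1* and *SMARCD3*), and 0 reversed. The number of members higher was 4; it was 10 with median-of-ratios scaling, 11 with quantile normalization, 8 with voom on the recovered reads, and 4 to 7 when a library was left out, with 7 without shPAX2 replicate 1. The number lower was 19; it was 10 with median-of-ratios scaling, 11 at an adjusted p under 0.01, and 13 to 16 when a library was left out. The number past a 2-fold change was 0, and 0 to 1 when a library was left out (*SMARCA2*, without shPAX2 replicate 1). Partners higher numbered 7; they were 13 with either other scaling, 3 at an adjusted p under 0.01, and 2 to 9 when a library was left out (4 without shEV replicate 2, 2 without shPAX2 replicate 2). Partners lower numbered 17; they were 10 with median-of-ratios scaling, 9 with quantile normalization, 9 at an adjusted p under 0.01, and 9 to 14 when a library was left out (10 without shEV replicate 2, 9 without shPAX2 replicate 2, 10 without shPAX2 replicate 3). Paralog pairs without overlap numbered 8, and 8 to 10 when a library was left out. The replicate block, which shares only numbers with the design, gave 4 members higher and 15 lower, 6 partners higher and 13 lower, 0 members past a 2-fold change, and -1.47 for *PAX2*.

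Of 523 alternative fits of the 33 members not called, 28 gained a call, in 13 genes, most often *DNMT1*, *PHF19* and *BRD9*. *SMARCB1* and *BRD9* gained it with median-of-ratios scaling (limma adjusted p = 0.00492 and 0.00823) and *DNMT3B* with quantile normalization (0.0161). Another 28 changed sign, in 15 genes. With median-of-ratios scaling these were *SUZ12* (0.08), *RBBP7* (0.09), *JARID2* (0.07), *MTF2* (0.01), *RNF2* (0.09), *PHC2* (0.03), *PBRM1* (0.03), *BRD7* (0.08), *SMARCC1* (0.10), *SMARCD2* (0.03) and *ACTL6A* (0.07). With quantile normalization they were *JARID2* (0.10), *RNF2* (0.08) and *PHC3* (0.00), and with voom *SMARCC1* (0.00). Ranges when a library was left out were -0.05 to 0.00 (*SUZ12*), -0.05 to 0.02 (*RBBP7*), -0.08 to 0.01 (*JARID2*), -0.06 to 0.02 (*RNF2*), -0.04 to 0.05 (*YAF2*), -0.08 to 0.01 (*BRD7*), -0.06 to 0.05 (*SMARCC1*), -0.02 to 0.10 (*UHRF1*) and -0.01 to 0.04 (*PAXIP1*). The cause was not tested, except that the other scalings shift all genes by construction. With 3 libraries a group and every shPAX2 library deeper, changes under about the size of the scaling shift cannot be assigned a direction from these data.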
